A study of Drosophila melanogaster with 2 samples.

Results

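Peaks of the homeodomain protein lms were examined at 5 GATA factor genes of Drosophila melanogaster, srp, GATAe, pnr, grn and GATAd, and at ush, which encodes a GATA cofactor. ChIP-seq had been performed with an anti-GFP antibody on whole embryos of a transgenic line carrying an insertion that stably expresses the lms protein (CG13424) with GFP at its C terminus. Embryos of both sexes were pooled at 6 to 18 hours by the source label, and a second label for age disagrees with that range and was not used. There was 1 group with 2 biological replicates and no second condition, so no comparison between conditions was made. The authors' list of peaks that passed the irreproducible discovery rate procedure (IDR list) held 7521 peaks, and the lists of each replicate and of both replicates pooled held 30000 peaks each. A peak is represented by its summit, and a gene's window is the gene plus 2 kb upstream. The 6 genes, of 13968 protein-coding genes in all, were chosen by family membership and with peak values of these same data known, above all the high peak in ush. Their summit counts, ranks and positions are therefore descriptions without a test. In the 6 windows lay 22 of the 7521 IDR summits.

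GATA factors are zinc finger proteins named after the short DNA element they bind. In the fly embryo srp acts in blood cell, fat body and endoderm formation, GATAe in the midgut endoderm, and pnr in the dorsal ectoderm and the heart; grn is required in organs that include the posterior spiracles and in some neurons. ush (u-shaped) encodes the fly Friend-of-GATA protein, a multi-zinc-finger cofactor that binds pnr and srp proteins and modulates their activity in the dorsal ectoderm, the heart and blood cells. lms has been studied in the lateral muscles of the body wall. Whole embryos were used, so a site bound in few cells and a site bound weakly in many cells cannot be told apart, and no deposited measurement tells which cells expressed the GATA genes.

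Sequence around 6 of the summits shows what lay beneath the peaks described next: the highest 3 of ush, the highest of srp and of grn, and the GATAd summit at that gene's start. Each is the release 6 reference (dm6), plus strand, at the summit and 50 bp to either side. Capitals mark a GATA element, which is AGATAA or AGATAG, the letters TGATAA, or the letters TGATAG, on either strand.
ush, 4873 bp into the gene, chr2L:481043-481143: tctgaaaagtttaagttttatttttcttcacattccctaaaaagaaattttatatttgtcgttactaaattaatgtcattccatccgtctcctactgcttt
ush, 3843 bp into the gene, chr2L:480013-480113: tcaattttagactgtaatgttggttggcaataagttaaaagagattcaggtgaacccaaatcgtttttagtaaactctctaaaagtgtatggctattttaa
ush, 44616 bp into the gene, chr2L:520786-520886: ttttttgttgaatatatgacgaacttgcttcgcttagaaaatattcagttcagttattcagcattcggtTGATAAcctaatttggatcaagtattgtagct
srp, 1535 bp upstream of the gene, chr3R:15984567-15984667: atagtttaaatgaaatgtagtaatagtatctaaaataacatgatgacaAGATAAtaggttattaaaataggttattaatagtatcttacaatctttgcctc
grn, 9749 bp into the gene, chr3R:8171645-8171745: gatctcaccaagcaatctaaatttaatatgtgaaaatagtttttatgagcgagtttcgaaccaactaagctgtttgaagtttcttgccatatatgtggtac
GATAd, 65 bp into the gene, chr2L:10333749-10333849: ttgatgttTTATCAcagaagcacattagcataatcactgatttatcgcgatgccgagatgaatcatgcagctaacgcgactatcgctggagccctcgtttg
The highest ush summit was AT-rich, with 27.7% GC over the letters shown, and held no GATA element. The highest srp summit had 22.8% GC and carried an AGATAA that began 2 bp before the summit. In the GATAd sequence the element is on the minus strand. The higher GATAd summit, at 1393 bp, and the GATAe summit at 2698 bp are not shown, and neither held a GATA element. The 6 sequences are examples and do not give the share with an element, which was 7 of the 22 summits.

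The ush window, which also contains cbt and 2 noncoding genes, held most of the IDR summits of the 6 windows. Its window of 66.3 kb held 14 IDR summits, and the windows of the other 5 genes together held 8. By gene, grn had 3 summits, srp and GATAd had 2 each, GATAe had 1 and pnr had 0. Thus 5 of the 6 genes had at least 1 IDR summit, where 40.0% of all protein-coding genes, of any length, had one. Because the genes were picked with these peaks known, nothing is read from that count. Among the 7521 highest peaks of replicate 1, ush again had 14 summits and the other 5 genes 8, and 5 genes had at least 1 (39.5% of all genes did). Among the 7521 highest of replicate 2, ush had 14 and the other 5 had 7, and 4 genes had at least 1 (41.4% of all genes did). In replicate 2 GATAe had none, srp had 1, GATAd had 2 and grn had 4.

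Scaled to length, GATAd and ush were the densest of the 6 windows. GATAd had 2.68 IDR summits per 10 kb and ush 2.11, followed by srp with 1.00, grn with 0.832, GATAe with 0.831 and pnr with 0. Over all protein-coding windows the density was 0.751 per 10 kb. ush stood 7th among 13968 genes by number of summits, a place it shared with 2 others. Windows were called similar in length from 0.8 times a gene's own to its own divided by 0.8. Of 173 other genes similar in length to ush, 4 had as many summits as ush or more, and their median was 2. For each of the other 5 GATA genes the median of genes of similar length was 1 summit, and 113 of 348 such genes had as many as grn. The counts of GATAd, srp and GATAe were reached or passed by 302 of 1719, 216 of 571 and 515 of 858 genes of similar length. At least 1 summit was held by 72.3% of the genes similar in length to ush. For pnr, srp, grn, GATAd and GATAe that share was 64.7, 64.1, 70.1, 52.0 and 60.0%. The largest counts among genes of similar length were 15, reached by mam and shn, for ush-sized windows and 14 in tara for grn-sized ones.

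**Figure D1:**
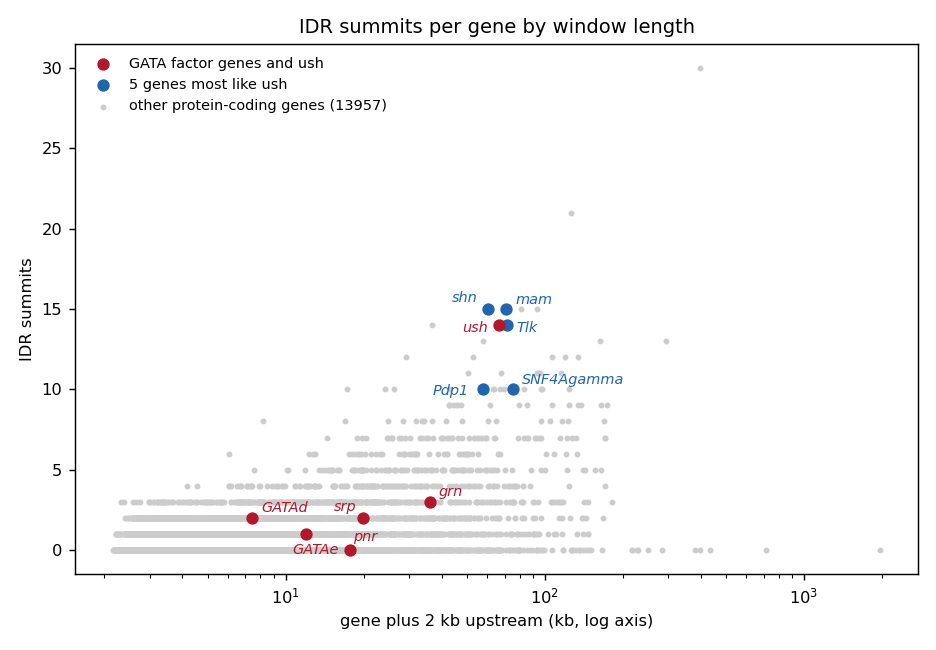
IDR summits per protein-coding gene (vertical axis) against the length of the gene plus 2 kb upstream (kb, log axis), with the 6 genes in red, the 5 genes most like ush in blue and all others in grey. ush, at 14 summits, lies near the upper edge for its length, whereas the 5 GATA factor genes, at 0 to 3, lie within the mass of genes.

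The 5 genes most like ush in summit counts were shn, SNF4Agamma, Pdp1, mam and Tlk. Likeness was the sum of absolute differences in the numbers of summits over the IDR, pooled, replicate 1 and replicate 2 lists, among genes similar in length. ush had 14, 43, 47 and 39 summits in those 4 lists. shn differed by 10 in all, with 15, 40, 44 and 36. SNF4Agamma differed by 12, Pdp1 and mam by 14 each, and Tlk by 17. The 4 lists come from 2 libraries, so these sums do not represent 4 separate measurements.

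All 14 ush summits lay in 1 intron. In the transcript of longest span, ush-RD, the first intron runs for 49060 bp and held 14 IDR and 37 pooled summits. The second intron, of 10586 bp, held 0 IDR and 5 pooled summits, and the 5 short introns after it held none. In another transcript a 5′ untranslated exon covers the summit at 14037 bp. The summits fell into 2 stretches, 8 of them between 3843 and 17195 bp from the first start site and 6 between 34535 and 46710 bp. The 17340 bp between these stretches held no IDR summit. Elsewhere the gaps between neighbouring summits were shorter, with 199 bp the smallest and a median over all gaps of 1778 bp.

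**Figure D2:**
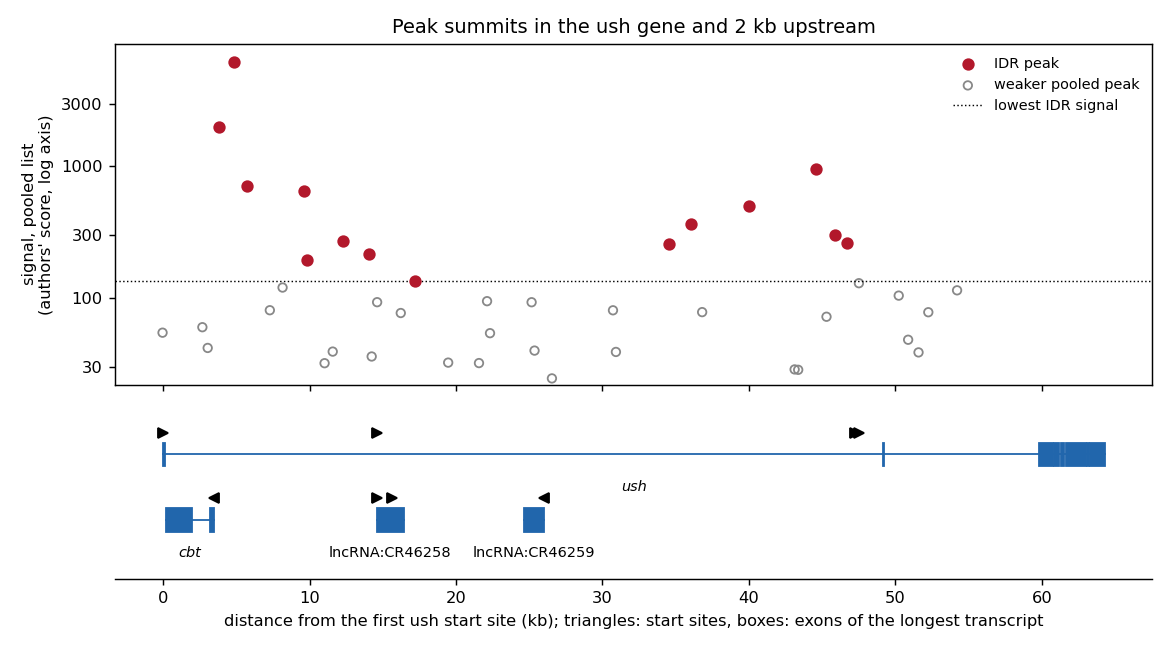
Summits in the ush window by distance from its first start site (kb) and by signal in the pooled list (authors' score, log axis), with gene models below. Filled points are the 14 IDR peaks and open points the weaker pooled peaks; the highest point, 6197, lies in the first intron just upstream of cbt.

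The highest ush peak was among the strongest of the genome and stood beside the nested gene cbt. Its summit was 4873 bp into ush, in a peak of 823 bp, with a pooled signal of 6197 and rank 11 in the IDR list. It ranked 11 in replicate 1 (signal 5163) and 15 in replicate 2 (signal 1063). Both replicates thus placed it near the top, 17 and 3 bp from the pooled summit. Signal is the authors' score, used here only within a list. cbt (cabut), a zinc finger transcription factor gene of 3243 bp, lies in the same intron on the opposite strand, with its start site 3468 bp from that of ush. The summit lay 1405 bp upstream of cbt and was nearer to it than to any start site of ush.

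The next summits on either side belonged to the same group. At 3843 bp a peak of pooled signal 1995 ranked 193 in replicate 1 (signal 1674) and 258 in replicate 2 (signal 329). It was 375 bp upstream of cbt, the only one of the 14 IDR summits of ush within 500 bp of an annotated start site. At 5747 bp a peak of signal 705 ranked 1141, with 1117 in replicate 1 (signal 586) and 1393 in replicate 2 (signal 118), 2279 bp upstream of cbt. These 3 summits had cbt as the gene with the nearest start site. Of the 14, 8 were nearest to a start site of ush and 3 to the start of a noncoding RNA gene alone, lncRNA:CR46258 or lncRNA:CR46259. Counting coding genes only, 11 of 14 were nearest to ush.

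Between cbt and the second start site of ush, at 14615 bp, the peaks were lower. The summit at 9643 bp had a pooled signal of 652 and ranked 1144 in replicate 1 and 2454 in replicate 2. Only 199 bp further, the summit at 9842 bp ranked 6150 in replicate 1 and 3616 in replicate 2, the reverse order between the replicates. Summits at 12259 and 14037 bp ranked 3733 and 4662 in the IDR list. lncRNA:CR46258 shares the second start site of ush, and the summit at 14037 bp lay 578 bp upstream of both.

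The far stretch lay upstream of the third start site of ush, at 47246 bp, and the last, at 47516 bp, from which shorter transcripts begin. Its highest summit, at 44616 bp, had a pooled signal of 951 and rank 749. Its replicate ranks were nearly equal, 754 in replicate 1 (signal 770) and 753 in replicate 2 (signal 181). It lay 2630 bp upstream of the third start site. The summit at 40018 bp had a pooled signal of 496, ranking 1685 in replicate 1 and 2966 in replicate 2, and the one at 36029 bp ranked 2512 and 4418 in the same order. Summits at 34535, 45913 and 46710 bp had IDR ranks of 3894, 3293 and 3856. The nearest of them to a ush start was 536 bp upstream of it.

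The first, second and last start sites of ush carried weaker peaks only. No pooled summit lay between 46710 and 47514 bp, the stretch that holds the third start site, at 47246 bp. At the first start site a pooled summit 37 bp upstream ranked 16161, with 20496 in replicate 1 and 16018 in replicate 2. One base into the transcript from the second site, a summit ranked 10555 in the pooled list and 9506 in replicate 1, and replicate 2 had no summit within 150 bp. The summit 2 bp before the last start site ranked 7801 (signal 130), the first ush peak below the end of the IDR list, with 7728 in replicate 1 and 11122 in replicate 2. The last ush peak inside the list, at 17195 bp, ranked 7510 (signal 135). These values on either side of the limit differ little.

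The 3 genes srp, GATAe and pnr lie next to each other on chromosome arm 3R, transcribed in the same direction. From 2 kb upstream of srp to the end of pnr the cluster spans 57.6 kb and held 5 IDR summits, or 0.867 per 10 kb, and 19 pooled summits. Signals of the 5 ran from 155 to 285, with 2 of them above the list's median of 267 and 3 below it. All 5 lay in the srp and GATAe part. The gap between srp and GATAe, 5020 bp, held 2 of them.

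**Figure D3:**
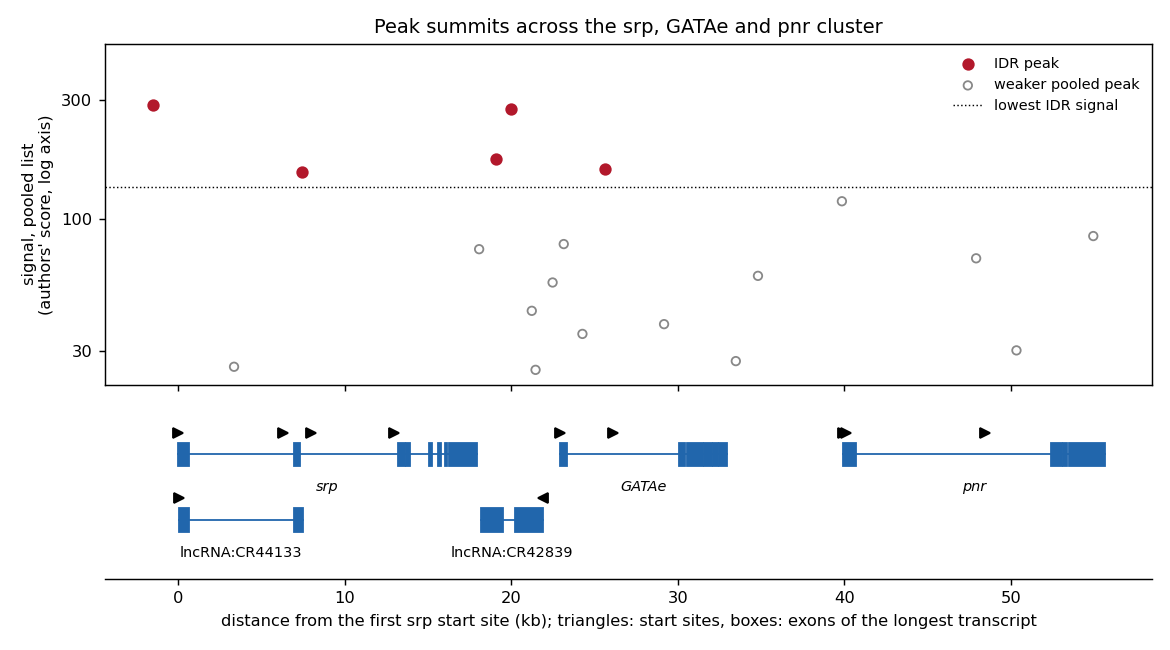
Summits across the srp, GATAe and pnr cluster by distance from the first srp start site (kb) and by signal in the pooled list (authors' score, log axis), with gene models below. The 5 filled IDR points stop at 25651 bp, inside GATAe, and every point over pnr is an open, weaker one.

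srp, the blood, fat body and endoderm factor, had 1 summit upstream and 1 inside. The upstream summit, 1535 bp before the first start site, had a pooled signal of 285 and rank 3505. It ranked 3595 in replicate 1 (signal 230) and 4016 in replicate 2 (signal 47.2), so the replicates placed it similarly. The second summit lay 7439 bp into the gene, in the second of 7 introns, 549 bp before an internal start site used by 2 of 7 transcripts. Its ranks were 6626 in the IDR list, 6629 in replicate 1 and 7855 in replicate 2. In replicate 2 its deposited −log10 q-value was 2.70, below the maximum of 4.07 in that list. The same summit lies inside lncRNA:CR44133, a noncoding gene on the strand of srp.

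The intergenic pair lay 19074 and 19983 bp from the srp start, outside every window used here. Their IDR ranks were 5919 and 3657. The first ranked 6097 in replicate 1 and 5672 in replicate 2, and the second 3487 and 5796. Both lay inside lncRNA:CR42839, which is transcribed away from GATAe and whose start site was the nearest of any gene, 2847 and 1938 bp away. The nearest coding start site was that of GATAe, with the summits 3879 and 2970 bp upstream of it. With 5 kb upstream in place of 2 kb, GATAe therefore had 3 summits.

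GATAe, the midgut factor, had 1 IDR summit in its own window. It lay 2698 bp into the gene, in the first intron of 6716 bp and 471 bp upstream of the second start site. Its signal was 159 and its rank 6429, with 6196 in replicate 1 (signal 137) and 8956 in replicate 2 (signal 21.4). The −log10 q-value in replicate 2 was 2.40. Near the first start site there were pooled summits of rank 15833 and 12006, at 471 bp upstream and 199 bp downstream. The replicates differed on this gene, since it had no summit among the 7521 highest peaks of replicate 2.

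pnr, the dorsal ectoderm and heart factor that ush protein binds, had no IDR summit in its window of 17.7 kb. The nearest IDR summits were the one in GATAe, 14276 bp upstream of the first pnr start site, and one 7747 bp past the end of the gene, at the shared start of IKKbeta and lncRNA:CR45212 (rank 3100). The pooled list had 4 summits in the pnr window; in that list 64.6% of all protein-coding genes had at least 1, as did all 6 genes described here. The highest of the 4 had a signal of 118 and rank 8519 and lay 72 bp before the first start site. Replicate 1 ranked it 7705, and replicate 2 had no summit within 150 bp. A summit in the 3′ untranslated region, 15023 bp into the gene, ranked 11300 in the pooled list, 12650 in replicate 1 and 7812 in replicate 2. The remaining 2 ranked 13296 and 25571 and were matched in neither replicate.

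grn had 3 IDR summits spread over its 34.1 kb, in introns 1, 2 and 5 of 8. The highest lay 9749 bp from its single start site, in the second intron, with signal 269 and rank 3739. Replicate 1 ranked it 3964 (signal 211) and replicate 2 ranked it 3595 (signal 52.3). The summit at 25473 bp, in intron 5, ranked 5141 in the IDR list, 5339 in replicate 1 and 5477 in replicate 2. For both summits the replicates gave nearly the same rank.

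The third grn summit differed between the replicates. At 833 bp from the start it ranked 6547 in the IDR list and 6138 in replicate 1, but 20627 in replicate 2, where its −log10 q-value was 0.534. It was the lowest replicate 2 rank of the 22 summits. Conversely, a summit 218 bp upstream of grn ranked 8475 in the pooled list and 11055 in replicate 1 but 4985 in replicate 2. Another at 4909 bp ranked 8517, 9228 and 6768 in the same lists. So the 3 IDR summits of grn and the 4 that replicate 2 placed among its 7521 highest peaks had 2 sites in common.

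GATAd was the shortest of the 6 genes, at 5.45 kb, and had 2 IDR summits. One lay 65 bp after its first start site, in the 5′ untranslated region and shortly before a second start site. Its rank was 5964 in the IDR list, 6279 in replicate 1 (signal 136) and 6380 in replicate 2 (signal 30.2). The other, 1393 bp into the gene and in the first intron of GATAd-RC, had a signal of 301 and rank 3312, the highest outside ush. Replicate 1 ranked it 3005 (signal 268) and replicate 2 ranked it 5530 (signal 34.8). No weaker pooled summit lay in the window, unlike in the other 5 windows.

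**Figure D4:**
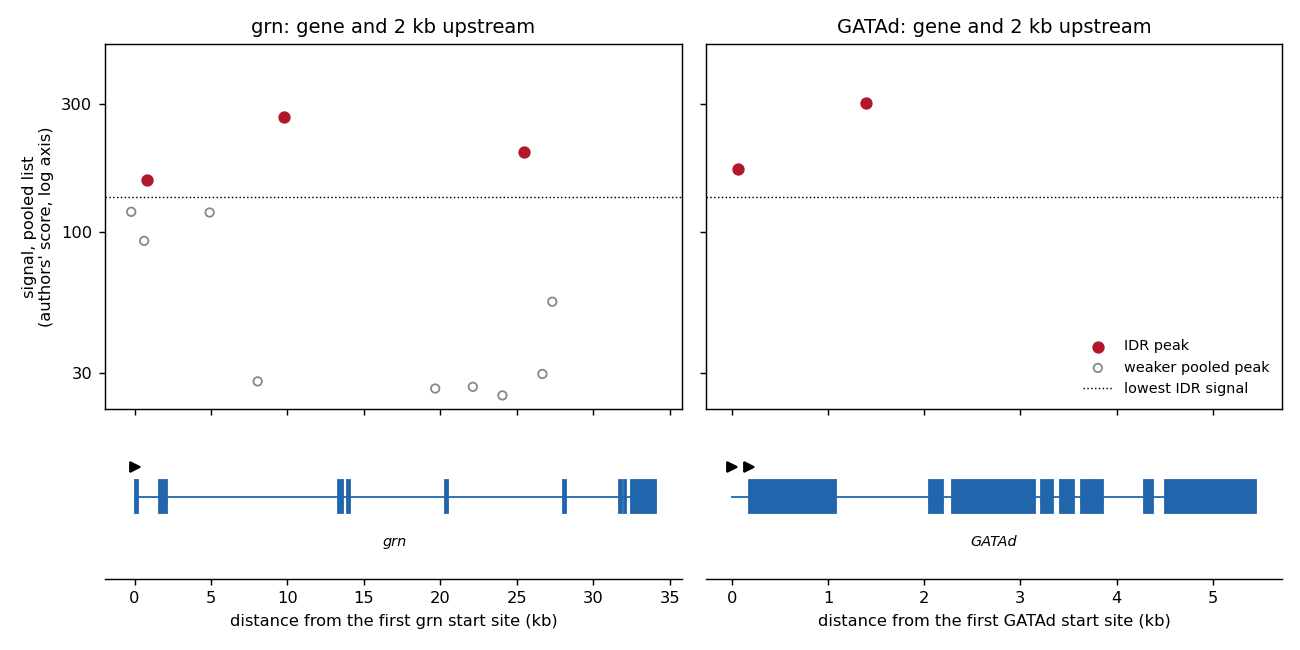
Summits in the windows of grn (left) and GATAd (right) by distance from the first start site (kb) and by signal in the pooled list (authors' score, log axis), with gene models below. grn has 3 filled IDR points between 833 and 25473 bp and 9 open weaker ones, and GATAd has 2 filled points and no open one.

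In strength, the summits of ush reached further than those of the other genes. The 14 ush summits had signals from 135 to 6197 with a median of 335, and the 8 others from 155 to 301 with a median of 185. The ranges overlap at their lower ends. The middle rank of the IDR list is 3761, and 9 of the 14 ush summits and 3 of the 8 others ranked at or above it. In width the 22 peaks ran from 105 to 823 bp, with a median of 286 bp, against 322 bp for the whole list.

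All 22 summits had a partner within 150 bp in both replicate lists, as did 95.4% of all IDR summits. The partner was at most 48 bp away in replicate 1 and 98 bp in replicate 2. Replicate 1 placed all 22 among its 7521 highest peaks and replicate 2 placed 18. The 4 outside were those of ush at 17195 bp, of srp at 7439 bp, of GATAe and of grn at 833 bp. Spearman's rho between the ranks in the 2 replicates was 0.792 over the 22 summits and 0.820 over the 14 in ush. These are descriptions across sites of the same 2 libraries, called against the same control alignment.

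**Figure D5:**
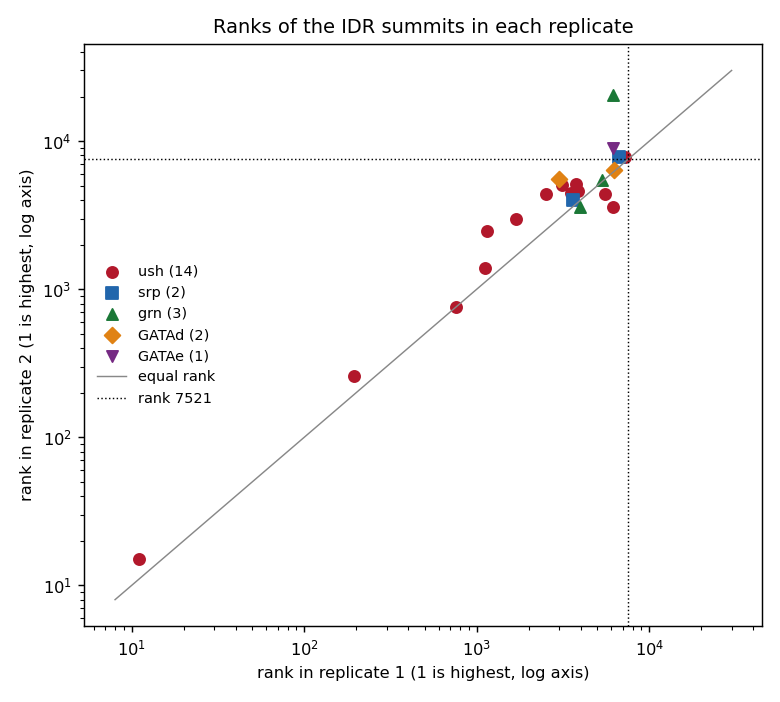
Rank of each of the 22 IDR summits in replicate 1 (horizontal) and replicate 2 (vertical), both on log axes with 1 the highest; the line marks equal ranks and the dotted lines rank 7521. The highest ush summit is at 11 and 15, and the grn summit at 6138 and 20627 lies furthest from the line.

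The summits lay away from start sites more often than the list as a whole did. Of the 22, 19 (86.4%) were over 500 bp from any annotated start site, as were 54.1% of the 7521 IDR summits. However, 14 of the 22 lay in a single intron of ush, 49060 bp long, so this share mostly describes that intron. The median distance was 1536 bp for the 22 summits, 2318 bp for those of ush and 657 bp for the whole list. The 3 closer summits were those 375 bp upstream of cbt, 471 bp upstream of an internal GATAe start and 65 bp inside GATAd. By annotation of the gene itself, 19 summits were intronic, 2 were in 5′ untranslated exons (ush and GATAd) and 1 was upstream (srp). No summit lay in coding sequence or in a 3′ untranslated region. These genes were chosen with their peaks known, so the difference from the whole list was not tested.

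Base composition resembled that of the list. GC content in 51 bp at the summit averaged 34.2% ± 9.21 over the 22 summits and 31.5% ± 10.6 over all IDR summits (SD across sites). Single values ran from 21.6%, at a ush and both srp summits, to 60.8% at the GATAd intron summit. A GATA element lay within 50 bp of 7 of the 22 summits (31.8%). For all IDR summits the share was 24.6%, and for windows centred 500 bp to either side of them 15.6%. In the flanks of the 22 summits the element was in 13 of 44 windows (29.5%), close to the share at the summits themselves. The 7 were 4 in ush, at 9842, 17195, 44616 and 45913 bp, and 1 each in srp (upstream), grn (833 bp) and GATAd (65 bp). TAATTA, a core that many homeodomains bind, was in 0 of 22 summit windows and in 11.3% of all. In the flanks it was in 2 of 44 windows (4.55%) for the 22 summits and in 5.78% for all. With so few windows, little can be read from a count of 0. TATCGATA, the element of the promoter factor DREF, was in 0 of 22 and in 1.58% of all. Motifs were searched on both strands, and a match describes these letters only.

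Cofactor genes, and genes of tissues in which the GATA factors act, were looked up as 4 lists. In these lists 17 of 36 genes had an IDR summit, or 47.2%, where 40.0% of all protein-coding genes, of any length, had one. The listed genes were not matched to others for length, so nothing is read from that difference. Of 6 cofactor genes 4 had one. The chromatin remodeller gene Mi-2 was highest, with a rank of 340 and 3 summits. Its best summit was nearer to the start of asRNA:CR43889, 6077 bp away, than to a Mi-2 start, 6927 bp away. Bx, which encodes an LIM-only protein acting on the pnr partner Chi, followed with rank 1151 and 5 summits. The corepressor gene CtBP had 2, the better at rank 3485. The summit of MTA1-like, at rank 2397, was nearer to the start of Sec23. Chi and Caf1-55 had none.

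Blood cell genes were the list with the smallest share, 3 of 12. The windows of these 3, zfh1, Pxn and kn, were 25.3, 30.6 and 36.4 kb long. Windows of the blood genes without a summit were shorter, from 4.25 kb (gcm) to 21.0 kb (lz). The lists were not matched for length, so nothing is read from the order of their shares. With all pooled peaks, 8 of 12 blood genes had a summit. The counts were then 5 of 6 for cofactors, 8 of 11 for dorsal ectoderm and heart, and 6 of 7 for endoderm. zfh1, a transcription factor gene of mesoderm and blood, had a summit of rank 366, 1489 bp upstream of its nearest start site. kn, which marks the lymph gland niche, had 1 of rank 4793, and the summit in the window of Pxn (rank 6237) was 137 bp upstream of CG42245 and MEP-1. The lineage genes lz, gcm and gcm2 and the marker genes Hml, NimC1, PPO1, PPO2, crq and Pvr had none.

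Dorsal ectoderm and heart genes had a summit in 6 of 11 cases. tin, the heart factor that acts with pnr, had 2, the better of rank 452 and 210 bp upstream of its nearest start site, with 422 in replicate 1 and 686 in replicate 2. dpp, the BMP ligand gene, had 2, led by rank 607 and 5285 bp downstream of the nearest dpp start site, with 631 in replicate 1 and 549 in replicate 2. Doc1, peb and tup had best ranks of 3056, 3847 and 7468. The Hand summit, rank 7352, was 315 bp upstream of Ufd4 and ranked 21893 in replicate 2. No IDR summit lay in the windows of zen, Doc2, Doc3, mid and H15. Of 7 endoderm genes 4 had a summit. Hnf4 was highest with 4 summits and rank 442, followed by fkh with rank 1603, cad with 3130 and lab with 6084. The cad summit was nearer to the start of Pomp, 6702 bp away, than to a cad start, 10060 bp away. The best Hnf4 and fkh summits lay 258 and 225 bp upstream of a start site of their own gene, and the best lab summit ranked 29498 in replicate 2. The endoderm genes hkb, byn and esg had no IDR summit.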

How the data were processed

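ChIP-seq peaks were available for 2 biological replicates of 1 group, numbered as in the labels. Chromatin had been sheared by sonication to 200 to 800 bp, per the labels, and the assembly was dm6. The deposited notes state that 1 control alignment served the peak calls of each replicate and of the pooled reads, and that those 3 lists gave the IDR list. The tools and settings behind these lists are not given in the sources used here, nor is sequencing depth, and intervals that need read counts were left out. Each peak has the authors' signal, on a scale that is not stated, the authors' −log10 q-value, and a deposited summit position. Signal was compared only within a list, as values or as ranks (1 is highest). The −log10 q-value was at its maximum, 4.37, for the IDR peaks named here. The IDR list equals the 7521 highest pooled peaks.

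Genes and start sites came from Ensembl release 115 (FlyBase 6.54), without transposon insertions, and sequence from the RefSeq release 6 assembly, which shares the dm6 coordinates. No peak ran past a chromosome end. Coordinates count from 1. Windows were the gene plus 2 kb upstream; a summit within 150 bp counted as matched. Intron numbers refer to the transcript of longest span. The genes, lists, motifs and alternatives were chosen with earlier results of these data known. Named are the 6 genes, genes overlapping or nearest to their summits, the 5 genes most like ush and list genes with a summit; genes named as having no summit were added after their values were seen. With 2 replicates and no second group no test was made. Counting, distances and motif search were tested on simulated data. Software was Python 3.11.15 with pandas 2.3.3 and numpy 2.4.6 for counting, scipy 1.17.1 for rank correlation, and matplotlib 3.10.9 for plots.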

Additional observations from a re-analysis of the deposited data

How the results depend on the processing

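No paired analysis was possible because there was 1 group. Recomputing the 8 main results under other settings gave 45 values. Of these, 29 stayed within 1.5 times the count or within the spread between replicates, and 16 moved further. With all pooled peaks, which are more numerous by construction, the 6 windows held 71 summits, ush held 43, and 27 of the 36 list genes had one. Among the 3760 highest IDR peaks the 6 windows held 12 and ush 9. Assigned by the nearest start site, ush had 8 of its 14 summits, because cbt and 2 noncoding genes lie inside it. By that rule the 6 genes had 16 summits in all, so ush no longer held most of them. Then srp had 3, grn and GATAd 2 each, GATAe 1 and pnr 0. Leaving out each replicate gave 21 to 22 summits in the 6 windows, 14 in ush in both cases, 4 to 5 genes with a summit and 16 to 18 list genes, and a best ush rank of 11 to 15. The share of summits away from start sites was 85.7 to 86.4% with 1 replicate left out, 95.5% beyond 250 bp, 68.2% beyond 1 kb and 81.7% for pooled peaks. The share with a GATA element was 23.8 to 27.3% with 1 replicate left out, 26.8% for pooled peaks, 22.7% in 51 bp and 45.5% within 100 bp to either side; longer windows hold more matches by construction. Replicate 2 gave 1 summit in srp, 4 in grn and 0 in GATAe among its 7521 highest peaks, where the IDR list gave 2, 3 and 1. Read depth, which would set the precision of each peak, was not used here.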
